A study of Rattus norvegicus with 8 samples.

Results

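The 10 genes described here, Hspa5, Sdf2l1, Xbp1, Atf4, Atf3, Ddit3, Nupr1, Trib3, Chac1 and Asns, belong to the unfolded protein response and the integrated stress response. They were taken by name from the gene name column of the arrays, among non-control probes, which gave 11 probes, and all 10 were among the 22594 genes tested. The samples were hippocampal neurons of newborn Wistar rats (postnatal day 0-1), infected with lentivirus at day 3 in vitro at a multiplicity of infection of 6 and collected 7 days later, at day 10. In 4 samples the virus carried an shRNA against Sirt6, which encodes a sirtuin that removes acetyl groups using NAD, and in 4 it carried a scrambled shRNA, and the study asked what SIRT6 does in neuronal morphogenesis. No uninfected or untreated neurons were analysed here, so every sample had received a virus, and a single shRNA stood for each group. The labels leave unstated if replicates were independent cultures, and the p-values then measure only the spread among the samples at hand, part of which may be technical.

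Proteins that fail to fold in the endoplasmic reticulum (ER) trigger the unfolded protein response through the sensors PERK, IRE1 and ATF6. IRE1 splices the mRNA of Xbp1, and XBP1 and ATF6 then raise chaperones and degradation factors, while PERK phosphorylates eIF2alpha, which slows translation in general and favours that of ATF4. Other kinases, such as GCN2 in amino acid shortage, act on eIF2alpha too, and the resulting ATF4 program, the integrated stress response, raises genes of amino acid supply together with the regulators ATF3, CHOP (Ddit3) and TRIB3.

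These arms leave different marks in promoters, so the stretches before the start sites are shown first, from RefSeq (assembly GRCr8), which held 9 of the 10 genes, Atf3 being the other one. Each sequence runs 5′ to 3′ in the direction of its gene and ends before the start site. Capitals mark a match to the ER stress response element (CCAAT, any 9 bases, CCACG) in Hspa5 and Xbp1, and to the core of the C/EBP-ATF response element, TGATGNAA, in Nupr1, Trib3 and Chac1. Hspa5 and Sdf2l1 are given with the full 250 bases before the start, since they were the chaperone genes among the 10 and Sdf2l1 held the largest fall, and the others with the bases around the match.
Hspa5, chr3:38452766-38453015, plus strand: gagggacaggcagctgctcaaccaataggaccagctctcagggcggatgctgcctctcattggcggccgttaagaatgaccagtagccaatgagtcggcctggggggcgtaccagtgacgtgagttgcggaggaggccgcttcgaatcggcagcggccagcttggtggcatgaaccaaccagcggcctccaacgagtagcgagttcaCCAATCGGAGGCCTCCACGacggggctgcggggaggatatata
Sdf2l1, chr11:97376628-97376877, plus strand: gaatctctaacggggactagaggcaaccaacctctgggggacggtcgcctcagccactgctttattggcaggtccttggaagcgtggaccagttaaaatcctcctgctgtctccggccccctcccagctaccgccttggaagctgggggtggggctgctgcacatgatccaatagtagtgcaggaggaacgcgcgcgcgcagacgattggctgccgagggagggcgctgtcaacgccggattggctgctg
Xbp1, chr14:84604538-84604596, plus strand: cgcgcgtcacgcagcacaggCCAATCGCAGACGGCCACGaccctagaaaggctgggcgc
Nupr1, chr1:190645929-190645976, minus strand: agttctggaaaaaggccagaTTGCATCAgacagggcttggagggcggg
Trib3, chr3:161275534-161275574, minus strand: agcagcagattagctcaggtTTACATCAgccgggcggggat
Chac1, chr3:126795944-126795991, plus strand: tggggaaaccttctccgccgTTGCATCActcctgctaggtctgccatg

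Windows of 300 bases, 250 before to 50 after the start, were searched on both strands. The ER stress response element was found in 22 of 33469 rat promoters, or 0.0657%, and among the 10 genes in Hspa5, at bases 43 to 25 before the start, and in Xbp1, at bases 65 to 47. The TGATGNAA core stood in 1332 promoters, or 3.98%, and lay on the opposite strand in Nupr1 (bases 55 to 48 before the start), Chac1 (167 to 160) and Trib3 (21 to 14), which is why it reads TTGCATCA or TTACATCA above. The second ER stress element (ATTGG, any 1 base, CCACG) occurred in 0.0508% of promoters and the XBP1 core TGACGTGG in 0.595%, and neither was in a window of these genes. Sdf2l1, Ddit3, Atf4 and Asns held none of these letters in their windows, and no matches overlapped. A match describes letters and is not a measured binding site.

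Across the 8 arrays, 60.4% to 65.3% of the non-control probes were well above background, and the median processed signal was between 24.1 and 27.5. All arrays lay on 1 slide, with the Sirt6 shRNA samples in row 2 and the scrambled samples in row 1, so an effect of slide row cannot be told apart from that of the shRNA. Sirt6 itself had a processed signal of 476.6 ± 20.2 in Sirt6 shRNA neurons and 1336 ± 13.1 in scrambled shRNA neurons (SD, n = 4 each), a log2 change of -1.53 ± 0.040 (SE, limma adjusted p = 5.55e-06). The 12 neuronal markers checked were measured on these arrays, with 4 higher and 3 lower, and their mean level overlapped between the groups. Signals below are the background-corrected processed signals of the scanner software. Fold changes and tests are on levels, the log2 signal minus the 75th percentile of its array, and a gene was called at a limma adjusted p under 0.05.

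Of the 10 genes, 4 fell with the Sirt6 shRNA (Sdf2l1, Ddit3, Hspa5 and Atf3) and 3 rose (Nupr1, Asns and Trib3). Atf4, Xbp1 and Chac1 did not pass the test. The same 7 genes were those whose 4 Sirt6 shRNA levels all lay on one side of the 4 scrambled levels. Among all genes tested 30.4% were called, 15.6% higher and 14.8% lower, and the groups did not overlap for 33.4%. Among the genes at least as bright as the dimmest of the 10, the share called was 35.6%. Where a culture holds several cell types, fewer cells of a type and less RNA per cell cannot be told apart. The median log2 change of the 10 was -0.01, beside 0.02 for all genes tested. All 11 probes were well above background on all 8 arrays, and 0 were saturated.

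**Figure D1:**
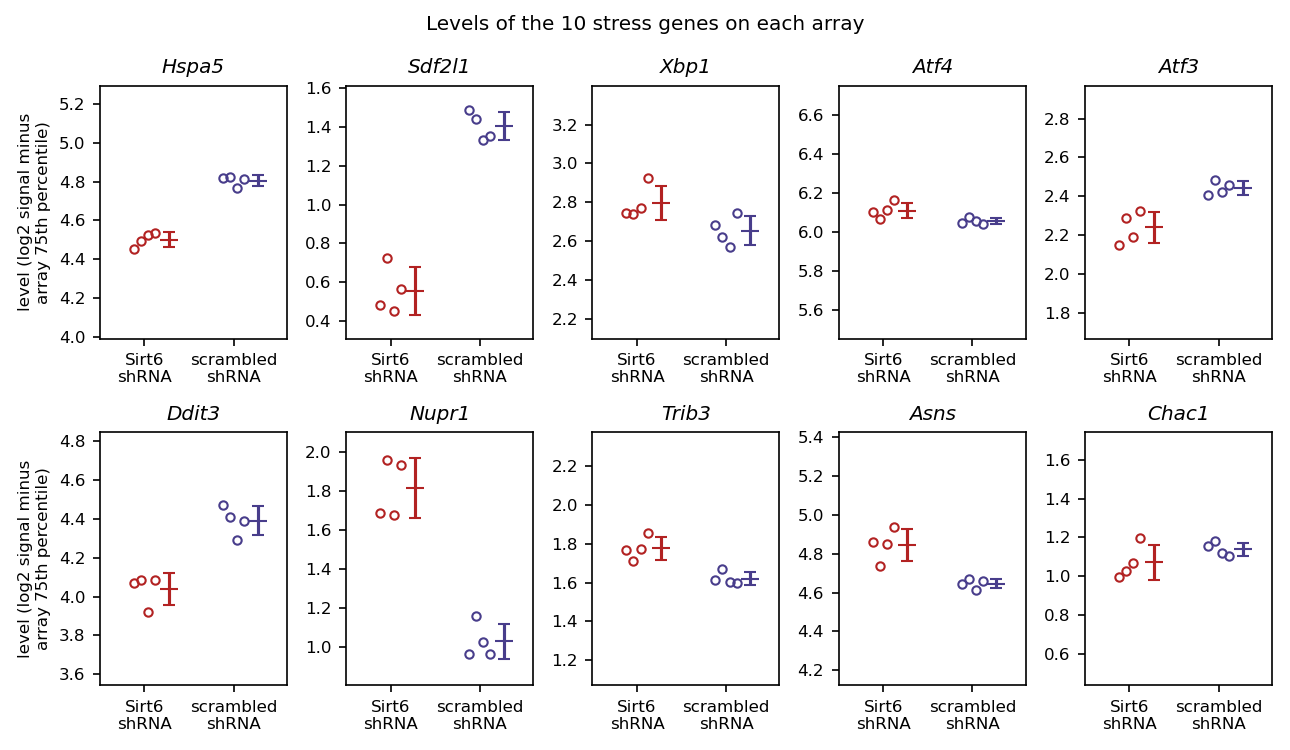
Level of each of the 10 genes (log2 processed signal minus the array's 75th percentile) in the 4 Sirt6 shRNA and 4 scrambled shRNA samples, with each panel spanning the same 1.3 log2 units. Circles are arrays and bars the group mean ± SD, and the groups stand apart for 7 genes and overlap for Xbp1, Atf4 and Chac1.

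The chaperone genes Hspa5 and Sdf2l1 both fell. Hspa5 encodes BiP, the main HSP70 chaperone of the ER, which also holds the sensors inactive, and its probe lies at chr3:13787739-13787798 (plus strand, build rn4). Its processed signal was 7249, 7364, 7862 and 7512 in Sirt6 shRNA neurons, against 8839, 9064, 9052 and 9024 in scrambled shRNA neurons. The highest Sirt6 shRNA sample stayed below the lowest scrambled one. The mean was 7497 ± 266 in Sirt6 shRNA neurons and 8995 ± 105 in scrambled shRNA neurons (SD, n = 4 each), a log2 change of -0.30 ± 0.035 (SE, 95% interval -0.386 to -0.223, limma adjusted p = 0.000618), or 1.23-fold lower. This probe was printed in 10 spots per array, and the spots of an array varied by 1.45% to 3.30% (coefficient of variation), so the fall was small but larger than the spread among spots and among samples.

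Sdf2l1 encodes an ER-resident partner of the DNAJB11 co-chaperone that acts in the BiP cycle and is induced by ER stress, and its probe lies at chr11:85880276-85880335 (plus strand, rn4). It gave 462.3, 541.1, 468.2 and 478.2 in Sirt6 shRNA neurons, against 877.9, 867.9, 838.9 and 821.7 in scrambled shRNA neurons. Replicate 2 was the highest of the Sirt6 shRNA samples and was still far under every scrambled sample. The mean was 487.5 ± 36.4 in Sirt6 shRNA neurons and 851.6 ± 25.9 in scrambled shRNA neurons (SD, n = 4 each). Sdf2l1 changed by -0.85 ± 0.069 in log2 (95% interval -1.01 to -0.689, adjusted p = 0.000126), or 1.80-fold lower, the largest fall among the 10. The size of this change exceeded that of 98.2% of all genes tested, while that of Hspa5 exceeded 78.4%. The 2 Sdf2l1 spots of an array had a coefficient of variation of at most 4.07%.

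Xbp1 encodes the transcription factor that IRE1 activates by splicing, and its mRNA is itself induced by ER stress. Its processed signal was 2221, 2181, 2335 and 2460 in Sirt6 shRNA neurons, against 2009, 1965, 1976 and 2156 in scrambled shRNA neurons. On the normalized scale the groups overlapped, since the lowest Sirt6 shRNA level was 2.74 and the highest scrambled level 2.75. Xbp1 did not pass the test (log2 change 0.14 ± 0.059, 95% interval 0.005 to 0.276, adjusted p = 0.108), and it stood on the other side of the threshold under 3 settings, normexp background correction (adjusted p = 0.0452), quantile normalization (0.0477) and eBayes with trend and robust options (0.0446). The array carries 1 Xbp1 probe, at chr14:86156913-86156972 (plus strand, rn4), and spliced and unspliced mRNA were not distinguished here.

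Atf4 encodes the central transcription factor of the integrated stress response, whose output depends strongly on translation, which arrays of mRNA do not read. It gave 22730, 21880, 23630 and 23180 in Sirt6 shRNA neurons, against 20660, 21610, 22110 and 21170 in scrambled shRNA neurons. The ranges of this probe (chr7:118538840-118538899, plus strand, rn4) overlapped, and the log2 change was 0.05 ± 0.035 (95% interval -0.025 to 0.135, adjusted p = 0.268). The size moved with the scaling, from 0.0098 after median centring to 0.13 after E1A scaling, and Atf4 was called under neither, which does not show that the groups were equal.

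Of the stress regulators downstream of ATF4, Ddit3 and Atf3 fell and Nupr1 rose. Ddit3 encodes CHOP, a factor that promotes cell death in lasting ER stress, and it gave 5560, 5543, 5174 and 5498 in Sirt6 shRNA neurons, against 6937, 6801, 6522 and 6729 in scrambled shRNA neurons. In every Sirt6 shRNA sample the probe (chr7:67252505-67252564, plus strand, rn4) lay under the lowest scrambled sample. The log2 change was -0.35 ± 0.056 (95% interval -0.480 to -0.222, adjusted p = 0.00271), or 1.28-fold lower. Sirt6 shRNA replicate 3 had the lowest level, at 3.92 beside 4.07 to 4.09 in the others, and without each array in turn the change ran from -0.38 to -0.31 with an adjusted p of at most 0.0105.

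Atf3 encodes a stress-induced factor of the ATF/CREB family, often a repressor, which is also an injury-response gene of neurons. Its probe is placed at chr13:107191582-107191614 (minus strand, rn4), a span shorter than its 60 bases, and its signal was 1472, 1599, 1563 and 1622 in Sirt6 shRNA neurons, against 1657, 1790, 1784 and 1767 in scrambled shRNA neurons. The groups did not overlap, though the gap between them was narrow. Atf3 changed by -0.20 ± 0.048 (95% interval -0.315 to -0.091, adjusted p = 0.0158), or 1.15-fold lower. The calls for Hspa5, Ddit3 and Atf3 were lost when arrays were scaled on their E1A probes, which read RNA spiked in at labelling, with log2 changes of -0.23, -0.28 and -0.13 (adjusted p = 0.119, 0.0689 and 0.383), and the call for Sdf2l1 was not.

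Nupr1 encodes a small chromatin-associated stress regulator that ATF4 induces. The array reads it with a pair of 60-base probes that overlap, shown here because their agreement is not independent, with capitals marking the 55 shared bases.
A_44_P1158326: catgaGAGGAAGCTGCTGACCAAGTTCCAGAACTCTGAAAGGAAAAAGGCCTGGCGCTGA
A_42_P812008: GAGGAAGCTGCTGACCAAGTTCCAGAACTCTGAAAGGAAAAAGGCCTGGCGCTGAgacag
The second probe (chr1:185771672-185771731, minus strand, rn4) was the brighter and stood for the gene. It gave 1067, 1273, 1092 and 1238 in Sirt6 shRNA neurons, against 608.5, 712.7, 677.6 and 626.3 in scrambled shRNA neurons. Every Sirt6 shRNA sample was above every scrambled sample by a wide margin. The mean was 1168 ± 103 in Sirt6 shRNA neurons and 656.3 ± 47.7 in scrambled shRNA neurons (SD, n = 4 each). The log2 change was 0.79 ± 0.084 (95% interval 0.596 to 0.982, adjusted p = 0.000404), or 1.73-fold higher, the largest rise among the 10 and larger in size than the change of 97.7% of all genes tested. The first probe gave the same log2 change, 0.79 ± 0.079.

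The effector genes changed less. Trib3 encodes a pseudokinase that ATF4 and CHOP induce and that damps ATF4 in turn. Its probe (chr3:142664936-142664995, minus strand, rn4) gave 1128, 1071, 1167 and 1172 in Sirt6 shRNA neurons, against 956.7, 1016, 1011 and 972.9 in scrambled shRNA neurons. The groups did not overlap, and the log2 change was 0.16 ± 0.041 (95% interval 0.061 to 0.252, adjusted p = 0.0238), or 1.11-fold higher. This call was close to the threshold. It was lost without Sirt6 shRNA replicate 1 (log2 change 0.16, adjusted p = 0.0534) or 3 (0.16, 0.0548) and without scrambled replicate 1 (0.15, 0.0520), 3 (0.15, 0.0555) or 4 (0.15, 0.0609), after median centring (0.11, 0.220), after E1A scaling (0.23, 0.140) and with no filter on dim probes (0.16, 0.0593).

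Asns encodes asparagine synthetase, a classic target of ATF4 in amino acid shortage. Its probe, at chr4:32759136-32759195 (minus strand, rn4), gave 9607, 8710, 9863 and 9904 in Sirt6 shRNA neurons, against 7823, 8133, 8134 and 8110 in scrambled shRNA neurons. All 4 Sirt6 shRNA samples were above the scrambled ones, with replicate 2 nearest to them. The log2 change was 0.20 ± 0.047 (95% interval 0.090 to 0.309, adjusted p = 0.0156), or 1.15-fold higher, and it lost its call after median centring (0.15, adjusted p = 0.131) and E1A scaling (0.27, 0.111). Another probe, at chr4:32758667-32758726, matched Asns by its accession and not by its gene name, and it did not show the rise, with a log2 change of -0.02 ± 0.051 (adjusted p = 0.771 over probes). The probes of Asns thus disagreed.

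Chac1 encodes a glutathione-degrading enzyme induced through ATF4 and CHOP. Its probe (chr3:105872719-105872778, plus strand, rn4) gave 660.4, 666.6, 716.4 and 742.3 in Sirt6 shRNA neurons, against 696.3, 725.2, 722.6 and 691.8 in scrambled shRNA neurons. The scrambled range lay inside the Sirt6 shRNA range, and the log2 change of -0.07 ± 0.051 (95% interval -0.185 to 0.049) did not pass the test (adjusted p = 0.347) and turned to 0.007 under E1A scaling.

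**Figure D2:**
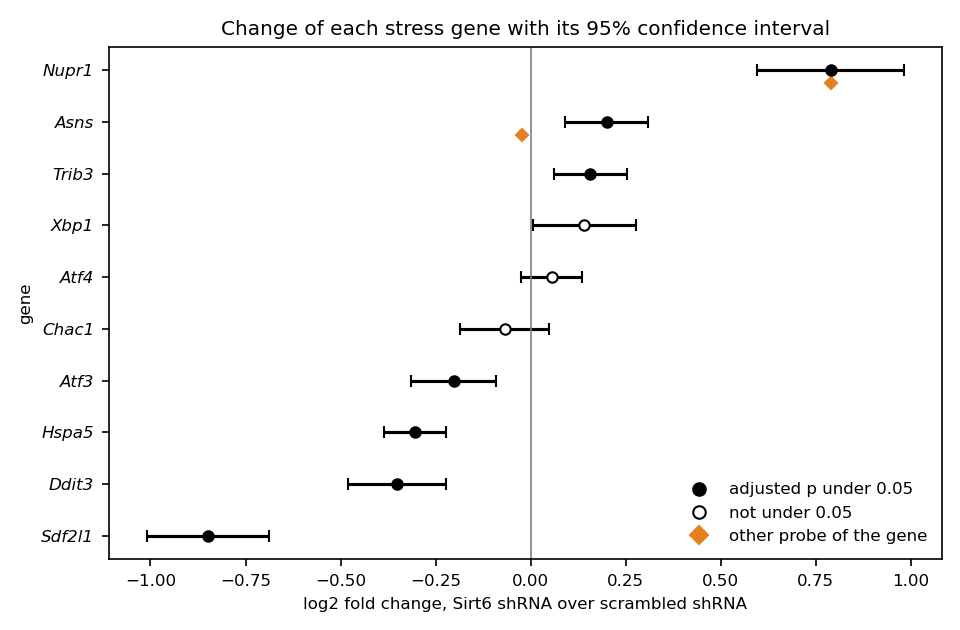
Log2 fold change of each gene (Sirt6 shRNA over scrambled shRNA, n = 4 each), with bars for the 95% confidence interval, filled circles for an adjusted p under 0.05 and diamonds for a further probe of the gene. Sdf2l1 at -0.85 and Nupr1 at 0.79 lie farthest from 0, and the further Asns probe lies at -0.02, away from the probe that carries the test.

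Other genes of these pathways were read from 8 lists holding 119 distinct genes, of which 118 were tested (no probe was named for Derl2). With the 10 genes included, 20 were higher and 35 lower, 46.6% in all. Without them, 17 of 108 were higher and 31 lower, 44.4% in all, beside 30.4% of all genes, and the median log2 change was -0.03, beside 0.02 for all genes. The number of higher genes was 13 without scrambled replicate 4. After E1A scaling 4 of the 118 were higher and 8 lower, beside 2093 and 1170 of the 22594 genes tested. The share called on the lists was thus no larger than that of all genes under this scaling. E1A scaling also raised the SE, from 0.035 to 0.092 for Hspa5 and from 0.041 to 0.099 for Trib3. A call lost there does not by itself show a smaller change, and that of Trib3 was 0.23 there beside 0.16.

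The sensors themselves showed no called change. Ern1, which encodes IRE1, was at 0.02 ± 0.057, Atf6 at -0.002 ± 0.037, its relative Atf6b at -0.01 ± 0.044 and Eif2ak3, which encodes PERK, at -0.21 ± 0.12 with an adjusted p of 0.226. The list of eIF2alpha kinases, their regulators and the eIF2alpha phosphatase subunits held 7 genes, Eif2ak3 again among them. Of these 2 were called, or 28.6%, beside 30.4% of all genes tested. Ppp1r15a, the stress-induced phosphatase subunit GADD34, rose by 0.17 ± 0.052 (adjusted p = 0.0396). Impact, an inhibitor of GCN2, changed by -0.16 ± 0.036 (0.0128). Ppp1r15a no longer passed when any 1 of 7 arrays was left out, Sirt6 shRNA replicate 1 being the exception (adjusted p = 0.0573 to 0.0909), nor after median centring (0.13, 0.205), after E1A scaling (0.25, 0.119) or with no filter on dim probes (0.17, 0.0672). The Impact call was lost after quantile normalization (-0.12, adjusted p = 0.0708) and E1A scaling (-0.08, 0.556).

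Among ER chaperones and folding enzymes, more genes were lower than higher with the Sirt6 shRNA. Of 25 measured, 11 were lower, Hspa5 and Sdf2l1 among them, and 1 was higher, or 48% called beside 30.4% of all genes. The median log2 change was -0.14. It was -0.105 with normexp background correction, -0.128 after quantile normalization and -0.186 after median centring. After E1A scaling it was -0.066, with 3 genes lower. Calr, which encodes the lectin chaperone calreticulin, changed by -0.57 ± 0.14 (adjusted p = 0.0168), Fkbp14, a prolyl isomerase, by -0.38 ± 0.052 (0.00143) and Hsp90b1, the ER form of HSP90, by -0.36 ± 0.043 (0.000714). Of the protein disulfide isomerases, Pdia3 was at -0.08 and did not pass the test (adjusted p = 0.133). Others were among the lower genes, with Pdia6 at -0.33, Pdia4 at -0.28, Txndc5 at -0.28 and P4hb at -0.22. Ero1b, an oxidase that recharges these enzymes, was the higher one (0.30 ± 0.084, adjusted p = 0.0284). The number of higher genes was 0 without Sirt6 shRNA replicate 2, 3 or 4 or without scrambled replicate 2. It was also 0 after median centring, after E1A scaling and with no filter on dim probes. The 3 genes left lower by E1A scaling were Sdf2l1, Calr and Hsp90b1. The other calls of this list were lost there, that of Fkbp14 among them (-0.30, adjusted p = 0.0562). Of other stress-inducible genes of the list, Creld2 at -0.15 and Manf at -0.14 were called lower (adjusted p = 0.0431 and 0.0316). Among those that did not pass the test, Hyou1 was at -0.04, Dnajb9 at -0.06 and Canx at -0.06, with adjusted p-values of 0.515, 0.360 and 0.336.

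The mean level of the chaperone list ran from 1.94 to 1.99 in the 4 Sirt6 shRNA samples and from 2.11 to 2.15 in the scrambled samples, so the groups did not overlap. Markers of other cells changed too, in both directions. Of 12 astrocyte markers 8 were lower and 1 higher, among them S100b at -1.42, Gfap at -0.71 and Gja1 at -0.63 against Gjb6 at 1.15. Their summed level (linear scale, in units of the array's 75th percentile) was 264 to 287 in Sirt6 shRNA samples and 360 to 392 in scrambled samples. S100b, with a mean log2 level of 4.79 in Sirt6 shRNA and 6.21 in scrambled samples, made up a large part of that difference. The mean log2 level of the 12 was 2.815 to 2.927 in Sirt6 shRNA samples and 3.072 to 3.197 in scrambled samples. The 10 oligodendrocyte lineage markers had 3 lower and 1 higher (summed level 42.9 to 44.8 in Sirt6 shRNA samples and 48.2 to 53.3 in scrambled samples), and the 12 microglia markers 3 lower and 0 higher (summed level 25.2 to 50.8 in Sirt6 shRNA samples and 35.9 to 50.6 in scrambled samples). Of 11 endothelial and mural markers 7 were measured and 3 were higher, Tagln at 2.14, Myh11 at 0.92 and Acta2 at 0.71. Tek at 0.41, Cdh5 at 0.23, Pdgfrb at -0.07 and Pecam1 at -0.46 were not called. Their summed level was 11.2 to 13.6 in Sirt6 shRNA samples and 3.49 to 4.27 in scrambled samples. Tagln, with a mean log2 level of 3.41 in Sirt6 shRNA and 1.27 in scrambled samples, made up most of that sum. Cldn5, Flt1, Rgs5 and Cnn1 were not well above background on enough arrays. Among 9 measured markers of fibroblasts and meninges 5 were higher and 1 was lower, Fmod at -1.97. Their summed level was 44.9 to 48.5 in Sirt6 shRNA samples and 38.3 to 40.4 in scrambled samples. Their mean log2 level overlapped, at 0.867 to 0.998 in Sirt6 shRNA samples and 0.873 to 0.984 in scrambled samples. The part of these cells in the changes of the stress genes was not tested.

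ER-associated degradation, which returns misfolded proteins to the cytosol for the proteasome, had 7 of 17 genes lower and 0 higher. The share called was 41.2%, beside 30.4% of all genes. The median log2 change of -0.06 became 0.02 under E1A scaling. Derl3, a stress-induced part of the retrotranslocation machinery, changed by -0.95 ± 0.079 (adjusted p = 0.000144), or 1.93-fold lower. Its other probes gave -0.93 and 0.02, so they did not all show the fall. Nploc4, a cofactor of the segregase VCP, changed by -0.46 ± 0.034 (adjusted p = 9.14e-05) and Selenos, which recruits VCP to the ER membrane, by -0.31 ± 0.047 (0.00239). Sel1l, the partner of the ubiquitin ligase HRD1, was at -0.26 and Vcp itself at -0.17, both called, while Syvn1, which encodes HRD1, was at 0.02 and Herpud1 at 0.14, neither called. The number of higher genes was 2 without Sirt6 shRNA replicate 2, 1 without scrambled replicate 1 or 3, and 3 after quantile normalization. E1A scaling left 2 lower and 0 higher, and Selenos was not called there (-0.23, adjusted p = 0.142).

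The 12 stress transcription factors, which hold 5 of the 10 genes, had 2 higher and 4 lower, or 50% called beside 30.4% of all genes. Beside those already given, Cebpb, a partner of CHOP and ATF4, changed by -0.26 ± 0.047 (adjusted p = 0.00499), Nfe2l2, the antioxidant regulator NRF2, by -0.24 ± 0.043 (0.00451) and Atf5, whose translation rises in stress as that of ATF4 does, by 0.15 ± 0.040 (0.0216). The Atf5 call was lost without Sirt6 shRNA replicate 1 (log2 change 0.15, adjusted p = 0.0536) or 4 (0.14, 0.0524) and without scrambled replicate 3 (0.14, 0.0539) or 4 (0.14, 0.0575), which left 1 higher factor. It was also lost after median centring (0.11, 0.178), after E1A scaling (0.23, 0.0930) and with no filter on dim probes (0.15, 0.0575). E1A scaling left 1 factor higher and 0 lower, with Cebpb at -0.18 (adjusted p = 0.134) and Nfe2l2 at -0.16 (0.227).

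Genes of amino acid supply that ATF4 induces went both ways. Of 20 measured, 7 were higher and 5 lower, or 60% called beside 30.4% of all genes, with a median log2 change of 0.045. The lower ones were led by Slc7a11, the cystine importer xCT, at -0.64 ± 0.039 (adjusted p = 4.35e-05, other probe -0.66) and Psat1, of serine synthesis, at -0.53 ± 0.046 (0.000163, other probe -0.59). The others were transporter genes: Slc7a5 at -0.41, its heavy chain Slc3a2 at -0.31 and the cationic carrier Slc7a1 at -0.24. The higher ones were mostly enzymes. Cth, which makes cysteine, rose by 0.44 ± 0.096 (adjusted p = 0.0109), and Pycr1, of proline synthesis, was at 0.33, Pck2 at 0.25, Mthfd2 at 0.25 and Shmt2 at 0.14, beside Asns and the glycine transporter gene Slc6a9 at 0.21. After median centring 3 were higher and 6 lower, and after E1A scaling 3 were higher and 2 lower.

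Aminoacyl-tRNA synthetase genes, another ATF4-linked group, were called higher for 7 and lower for 4 of 21, counting the tRNA exporter Xpot in this list. In all 52.4% were called, beside 30.4% of all genes. Xpot changed by -0.52 ± 0.040 (adjusted p = 0.000108) and Mars1 by 0.26 ± 0.041 (0.00273). The number higher was 4 without Sirt6 shRNA replicate 1 or without scrambled replicate 3 or 4, and 1 after median centring. E1A scaling left 0 higher and 1 lower, with Mars1 at 0.33 (adjusted p = 0.0541). Of 13 genes for feedback and effectors downstream of ATF4 and CHOP, 2 were higher and 3 lower. That was 38.5% called, not far above the 30.4% of all genes. Stc2, a secreted stress glycoprotein, changed by -0.29 ± 0.055 (adjusted p = 0.00544), Ddit4, an inhibitor of mTORC1, by -0.29 ± 0.048 (0.00324, other probe -0.37) and Eif4ebp1, a repressor of translation, by 0.21 ± 0.051 (0.0168). That list had 4 higher genes without Sirt6 shRNA replicate 2 and 1 without Sirt6 shRNA replicate 1 or 3 or without scrambled replicate 1, 3 or 4. It had 0 higher and 0 lower after E1A scaling, with Stc2 at -0.22 (adjusted p = 0.139), Ddit4 at -0.21 (0.184) and Eif4ebp1 at 0.29 (0.0982), and 0 higher and 3 lower after median centring, with Eif4ebp1 at 0.17 (0.123).

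**Figure D3:**
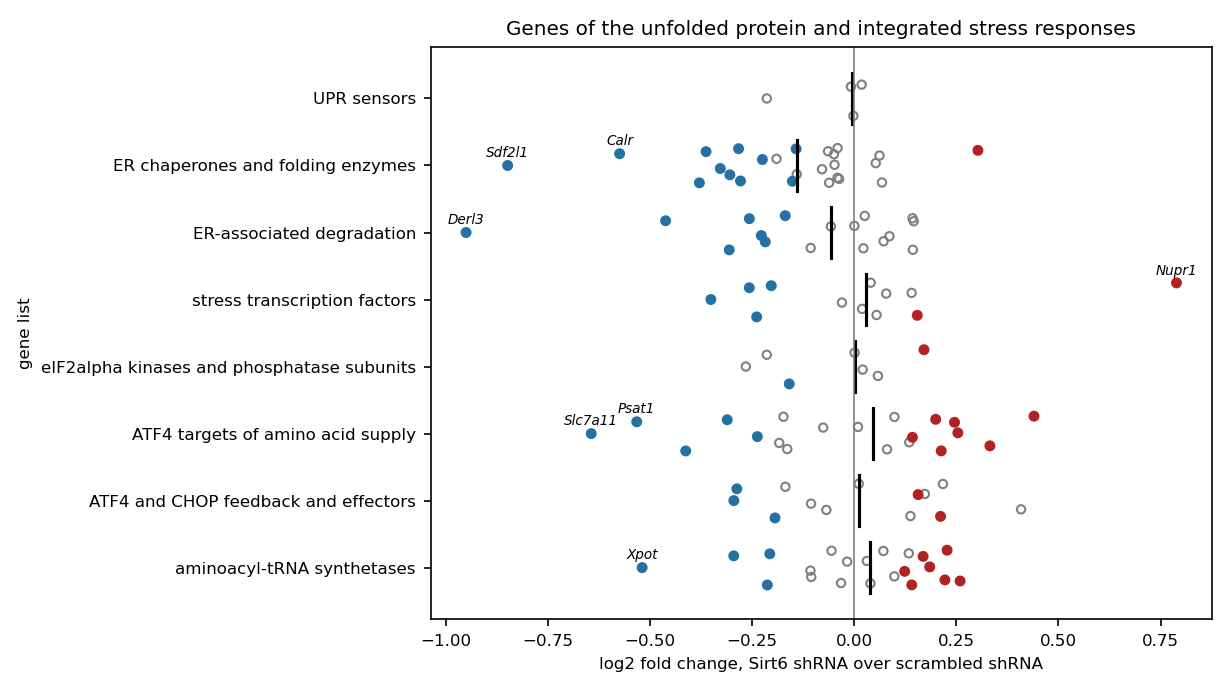
Log2 fold change (Sirt6 shRNA over scrambled shRNA) of every measured gene of the 8 lists, with filled circles for an adjusted p under 0.05, open circles for the others and a black bar for the list median. Chaperones have 11 of 25 lower and 1 higher (3 and 0 under E1A scaling), and amino acid supply genes 5 lower and 7 higher.

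**Figure D4:**
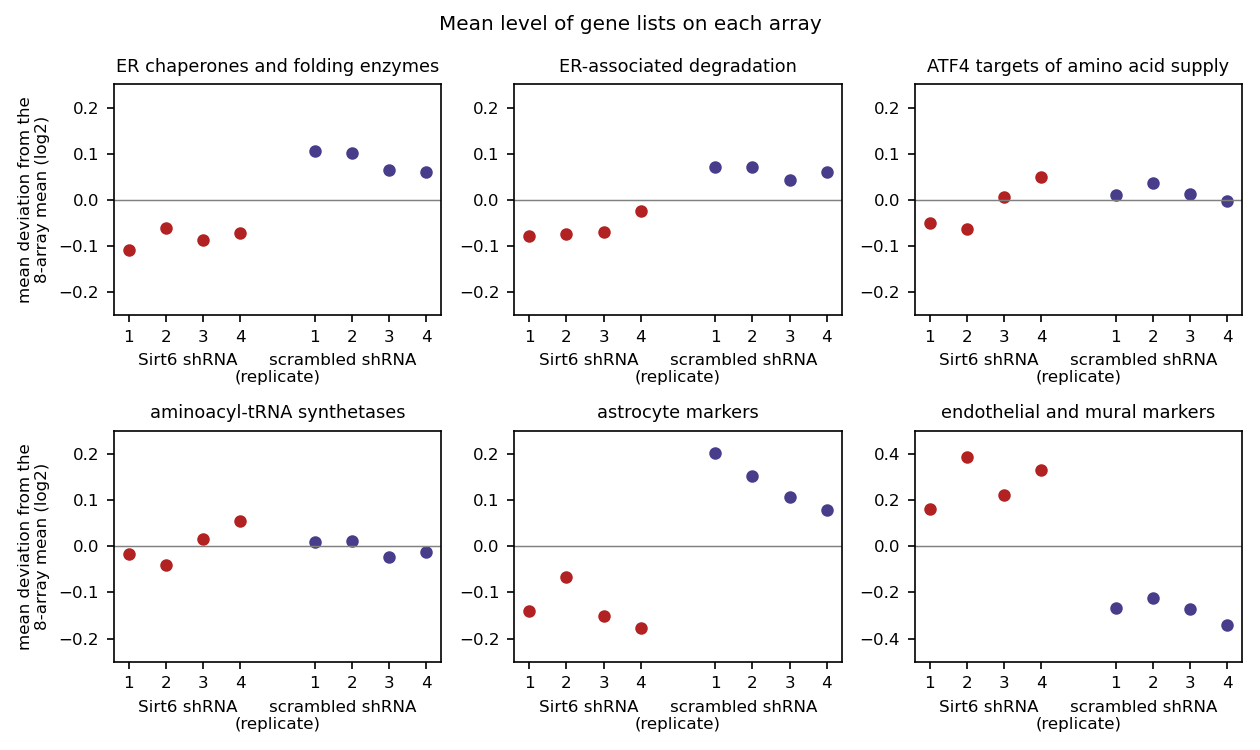
Mean deviation of 4 stress gene lists and 2 marker lists from their 8-array mean (log2) on each array, with the Sirt6 shRNA replicates on the left and the scrambled ones on the right of each panel and a wider axis for the endothelial and mural markers. The groups do not overlap for chaperones, ER-associated degradation and both marker lists, and overlap for amino acid supply and synthetase genes.

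Set beside the promoter letters shown above, the 9 tested pathway genes with an ER stress response element comprised 5 that were lower (Derl3, Calr, Hsp90b1, Hspa5 and Creld2), 1 that was higher (Ero1b) and 3 not called (Xbp1, Dnajc3 and Canx). The 18 with a TGATGNAA core comprised 6 that were higher (Nupr1, Pycr1, Mars1, Pck2, Tars1 and Trib3), 2 that were lower (Iars1 and Slc7a1) and 10 not called, Chac1 among them. Among all genes tested 14.8% were lower and 15.6% higher, and among the 118 list genes 35 were lower and 20 higher. Under E1A scaling the calls of Hspa5, Creld2 and Ero1b were lost among the genes with an ER stress response element. Among those with a TGATGNAA core, at least the calls of Trib3, Mars1, Tars1, Iars1 and Slc7a1 were lost. Of the 118 list genes, 8 were then lower and 4 higher. Genes of the lists were picked for their known roles, so the motif counts are counts within the lists and were not tested.

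Hspa5 was also used to look for genes with a like pattern, each array taken as its deviation from its own group mean so that the shRNA effect did not enter. Over the 8 arrays the genes closest to it were Vom2r71 (Pearson r = 0.986), LOC102555072 (0.980), Sit1 (0.979), Tspy1 (0.975) and a transcript that the files name by an Ensembl number (0.973). None of the 100 closest genes among 22593 was on a pathway list. The lists held 118 of the 22594 genes tested, so few would fall among 100 genes in any case. The median r with Hspa5 was 0.308 for the pathway genes, 0.229 for the chaperone genes and 0.0904 for all genes. Among the 10 genes r ran from 0.180 for Ddit3 and 0.246 for Sdf2l1 to 0.661 for Xbp1 and 0.767 for Chac1. The arrays share labelling and scaling, and with 8 points these values describe the arrays at hand.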

How the data were processed

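RNA from 8 samples was read on one-colour Agilent arrays. Per the file headers and the submitters' processing notes, the deposited intensity of each spot was produced by Agilent Feature Extraction 11.5.1.1 and was already background-subtracted and detrended. The deposited series table holds the authors' log2 values, which equalled the log2 processed signal minus 1 constant per array (SD of the difference at most 0.0029). Its column medians were -3.70 to -3.59, and its values were used as an alternative. No column of another sample was present.

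Control and outlier-flagged spots were left out, spots of a probe were averaged, and the array's 75th percentile over 45598 non-control probes was subtracted from log2 signals. A probe well above background on at least 4 of 8 arrays was kept (28620 probes), and the brightest kept probe stood for a gene. Names came from RefSeq GRCr8 by accession for 21109 and 2631 probes and by symbol for 5159 and 352 (older symbols), and 16347 kept the name in the files. The comparison used limma 3.58.1 (R 4.3.3, lmFit, eBayes, two-sided, Benjamini-Hochberg over 22594 genes), which was tested on simulated data. The number of arrays limits the precision.

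Members, lists, markers and settings were chosen with earlier results of these data known. Genes named are the members with every probe, Sirt6, and for each list the 3 called non-members of largest absolute log2 change whose groups do not overlap, and for Hspa5 the 5 most correlated genes. Of these, 1 gene is not reported here. Other list genes are given after seeing their values, as examples. Probe positions are in rn4, and their exon or UTR was not analysed here. Alternatives covered background correction, scaling, filter, eBayes options, array weights, the authors' values, a replicate block and omission of each array.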

Additional observations from a re-analysis of the deposited data

Results flagged for a closer look

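Among 38 groups of 4 arrays examined (each gene and list in each shRNA group), 2 held an array far from the others, where chance alone gives about 1 in 20. The Ddit3 level was 3.92 in Sirt6 shRNA replicate 3, beside 4.07 to 4.09 in the other 3 Sirt6 shRNA samples. The mean deviation of the ER-associated degradation list was -0.024 in Sirt6 shRNA replicate 4, beside -0.079 to -0.070 in the other Sirt6 shRNA samples, and was still below every scrambled sample. No cause was tested for either.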

How the results depend on the processing

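Under 21 alternative settings, Sirt6 (log2 change -1.57 to -1.41), Sdf2l1 (-0.905 to -0.773, adjusted p at most 0.0027) and Nupr1 (0.740 to 0.864, at most 0.00334) kept their direction and call, and Atf4 stayed not called. Scaling on E1A spike-in probes ended the calls of Hspa5 (-0.229), Ddit3 (-0.276), Atf3 (-0.128), Trib3 (0.232) and Asns (0.274) and turned Chac1 to 0.00688. It left 2093 genes higher and 1170 lower, 4 and 8 of the pathway genes, and 1 and 1 of the 10. Median centring ended the calls of Trib3 (0.112) and Asns (0.154) and left 1998 genes higher, 5 pathway genes and 1 of the 10. The share of higher genes among those called was 51.3%, 64.1% with E1A scaling and 35.2% with median centring. Xbp1 passed the test with normexp (0.146), quantile normalization (0.162) and the trend and robust options (0.141). With no filter Trib3 (0.157) lost its call and 12 pathway genes were higher. Without each array in turn, Trib3 ran from 0.130 to 0.178 and the count of higher pathway genes from 13 (without scrambled replicate 4) to 23. With the replicate number as a block Trib3 (0.157, adjusted p = 0.0673) and Ppp1r15a (0.171, 0.0572) lost their calls. Samples with the same number had small positive residual correlations (0.0644, 0.160, 0.132 and 0.0327), and 4 of 8 arrays were closest to their own number. With the block the SE fell from 0.056 to 0.037 for Ddit3 and rose from 0.041 to 0.047 for Trib3. These values do not settle if equal numbers mark pairs, and the main comparison did not take them as pairs. The causes of these changes were not tested. With 4 arrays a group, 1 slide and 1 shRNA, the calls of small changes such as those of Trib3, Asns and Atf3 rest on the scaling chosen.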
